A study of Mus musculus with 24 samples.

Results

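The libraries of 2 compound histone H3K9 methyltransferase mutants were set against each other: *E1E2 G9Gl*, with mutations of *Eset1*, *Eset2*, *G9a* and *Glp*, and *E1 S1S2*, with mutations of *Eset1*, *Suv39h1* and *Suv39h2*. Both are lines of mouse embryonic fibroblasts (MEFs), the mesenchymal cells grown from embryos, and RNA was sequenced from 3 cultures of each. The members were chosen by genotype and treatment, from the sample labels, and make up 6 of the 24 libraries of the series. Both lines carry a conditional *Eset1* allele and a tamoxifen-inducible Cre (CreERT2) kept under puromycin selection, and both had received 4-hydroxytamoxifen (4-OHT, 1 μM), so both are labelled as deleted for *Eset1*. The other genes were mutated with CRISPR/Cas9. *E1 S1S2* is clone B1, taken from the *Eset1*-conditional clone, and *E1E2 G9Gl* is clone E2, taken from the *Eset2*-mutant clone A4. *E1*, the *Eset1*-deleted parent of the first line, and *E1E2*, the *Eset1* and *Eset2* mutant parent of the second, were used as the base of each branch, and WT names the *Eset1*-conditional cells without 4-OHT. Nothing in the labels sets the 3 libraries of a line apart beyond their replicate number, and each group comes from 1 clone. An edgeR p-value here rests on the spread among libraries of the same group, pooled over the groups of the series. It measures no spread between clones of a genotype. *G9a* and *Glp* against *Suv39h1* and *Suv39h2*, the added *Eset2* mutation and the clone each line comes from cannot be told apart in the comparison of the 2 lines.

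Methylation of lysine 9 on histone H3 marks heterochromatin, the condensed and mostly silent part of the genome. The enzymes work as pairs: Suv39h1 and Suv39h2 place the trimethyl mark at the major satellite repeats beside centromeres and at dispersed repeats, Eset1 (Setdb1) trimethylates endogenous retroviruses with the corepressor Trim28, and G9a (Ehmt2) and Glp (Ehmt1) act as a complex that places the mono- and dimethyl marks over silent domains of the chromosome arms. In fibroblasts these marks keep lineage-foreign genes and transposable elements silent, and double-stranded RNA from retroelements is a known trigger of the interferon response.

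The *E1E2 G9Gl* libraries held 24736829 to 29777651 counts on genes and repeats, and the *E1 S1S2* libraries 32003043 to 37419071. Repeats took 20.8 to 21.2% of the counts in *E1E2 G9Gl* and 15.8 to 16.0% in *E1 S1S2*. Over the 22 fibroblast markers, the summed normalized counts were 317770 to 337299 in *E1E2 G9Gl* and 213638 to 232602 in *E1 S1S2*. Collagen I, vimentin and fibronectin RNA were present in all 6 libraries, while *Lum* was at 0 in all of them. Among the chromosomes, the median log2 fold change of *E1E2 G9Gl* over *E1 S1S2* ran from -0.26 on the X to 0.33 on chromosome 9, beside a median of 0 over all genes, and copy number was not measured. The levels below are normalized counts, that is, read counts divided by library size and TMM factor and set to a common scale, and values are given in the order of replicates 1, 2 and 3. A gene or repeat is called where it differed at least 2-fold (a log2 fold change of 1) with an adjusted p of at most 0.01 in edgeR's quasi-likelihood test, and SE is the standard error of the log2 fold change.

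The RNA of the targeted genes was read first. *Ehmt2* (G9a, chromosome 17 from 34898469 to 34914052 in GRCm38) had 1031, 937 and 1041 normalized counts in *E1E2 G9Gl* and 5433, 4631 and 5163 in *E1 S1S2*, lower by 2.34 on the log2 scale (SE 0.09, edgeR adjusted p = 4.66e-16). *Ehmt1* (Glp, chromosome 2 from 24789928 to 24919614) had 1046, 1031 and 999.9 against 2479, 2444 and 2544, a log2 fold change of -1.28 (SE 0.07, edgeR adjusted p = 5.59e-13). Both members of the G9a/Glp complex were therefore lower in every library of the line labelled as their mutant. *Suv39h1* (chromosome X from 8061171 to 8074760) had 2062, 1958 and 2023 in *E1E2 G9Gl* and 1282, 1254 and 1258 in *E1 S1S2*, a difference of 0.67 that stayed under the 2-fold limit. *Suv39h2* (chromosome 2 from 3455815 to 3475031) had 370.01, 357 and 355 against 1549, 1850.4 and 1699.9 (-2.23 ± 0.08, edgeR adjusted p = 4.48e-17). It was higher in all 3 libraries labelled *E1 S1S2* than the WT mean of 999.5, which goes against a loss of its RNA, although a frameshift need not lower the RNA level. *Suv39h2* also shares 357 exon bases with *Dclre1c*, and *Suv39h1* 767 with *Gm14820*, on the opposite strand, and whether the counting used strand is not given in the sources used here. *Setdb1* had 675, 657 and 679 in *E1E2 G9Gl* and 985, 1025 and 1056 in *E1 S1S2*, and *Setdb2* 269, 266 and 239.6 against 474, 519 and 492, so that neither reached the 2-fold limit. Only part of *Setdb1* is deleted by Cre, and its mean count over the whole gene was 1529 in WT and 1031 in *E1*, against 1233 in the *Eset2* mutant without *Eset1* deletion and 1237 in *E1E2*.

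**Figure D1:**
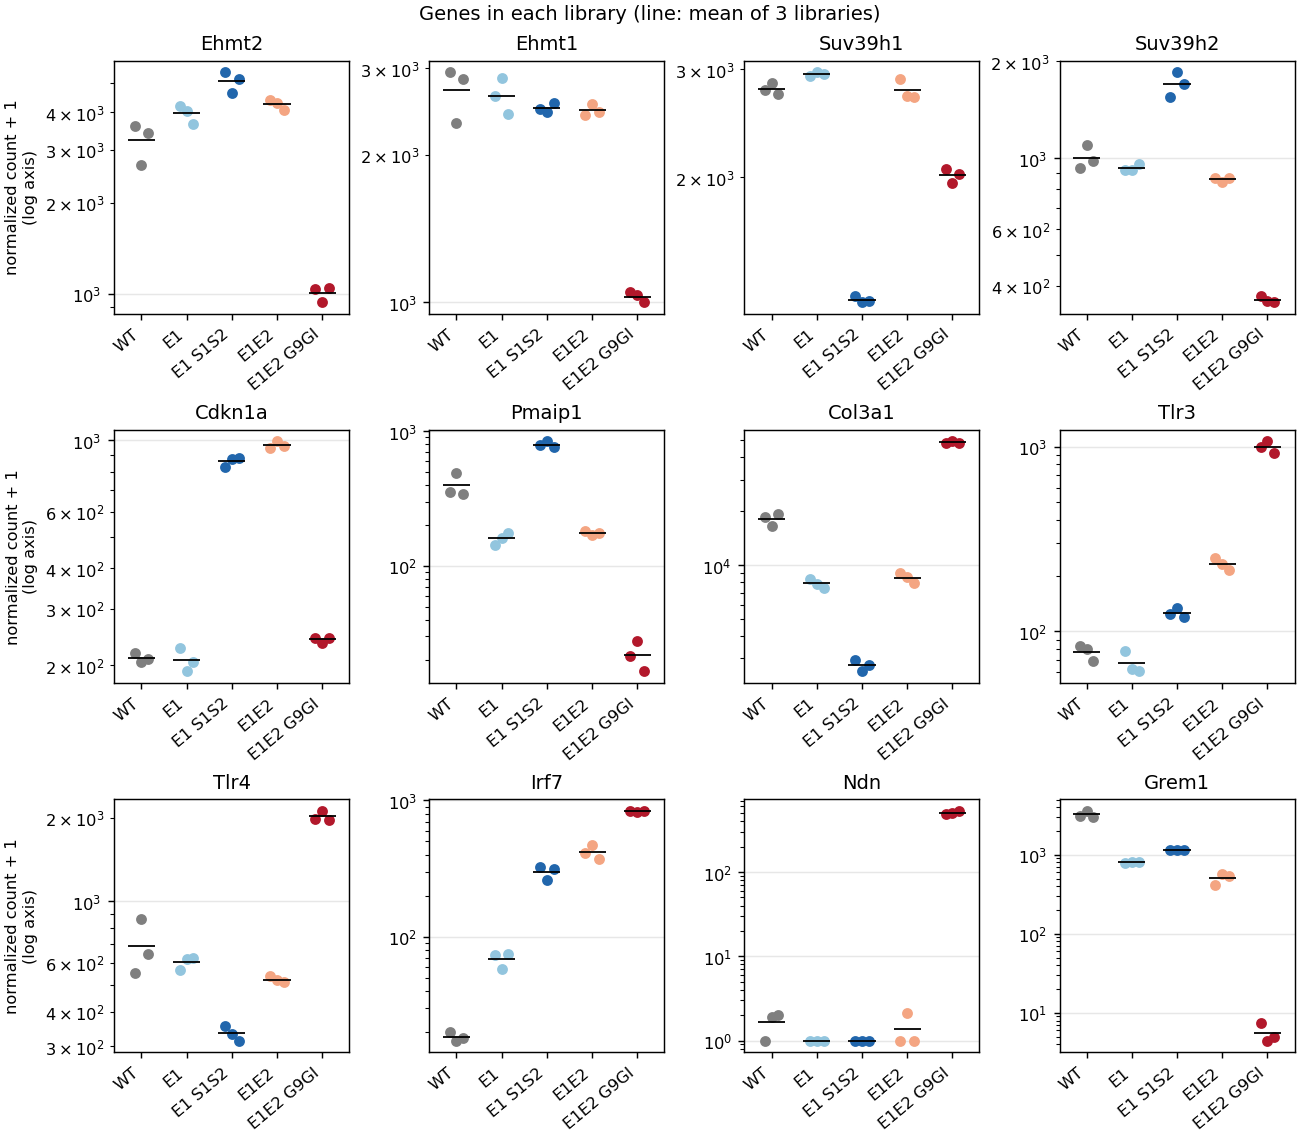
Normalized count + 1 on a log axis for 12 genes in the libraries of WT, *E1*, *E1 S1S2*, *E1E2* and *E1E2 G9Gl*, with 1 point per library and a line at the mean of each group. *Ehmt2* and *Ehmt1* are lowest in *E1E2 G9Gl*, *Suv39h2* is highest in *E1 S1S2*, and for *Col3a1*, *Pmaip1*, *Ndn* and *Grem1* the libraries of the 2 compound lines do not overlap.

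Of 18565 genes tested, 2644 (14.2%) rose and 1081 (5.82%) fell between *E1 S1S2* and *E1E2 G9Gl*, with a median log2 fold change of 0. The 3 libraries of one line lay wholly above or below those of the other for 13161 genes (70.9%). Of the higher genes 262 had no read in any *E1 S1S2* library, and of the lower genes 82 had none in *E1E2 G9Gl*. Among repeats, which are summed over the copies of an element, 393 of 1207 elements (32.6%) were higher and 12 (0.994%) lower. The libraries of the lines did not overlap for 857 elements (71%). The plot of fold change against level shows both kinds of feature.

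**Figure D2:**
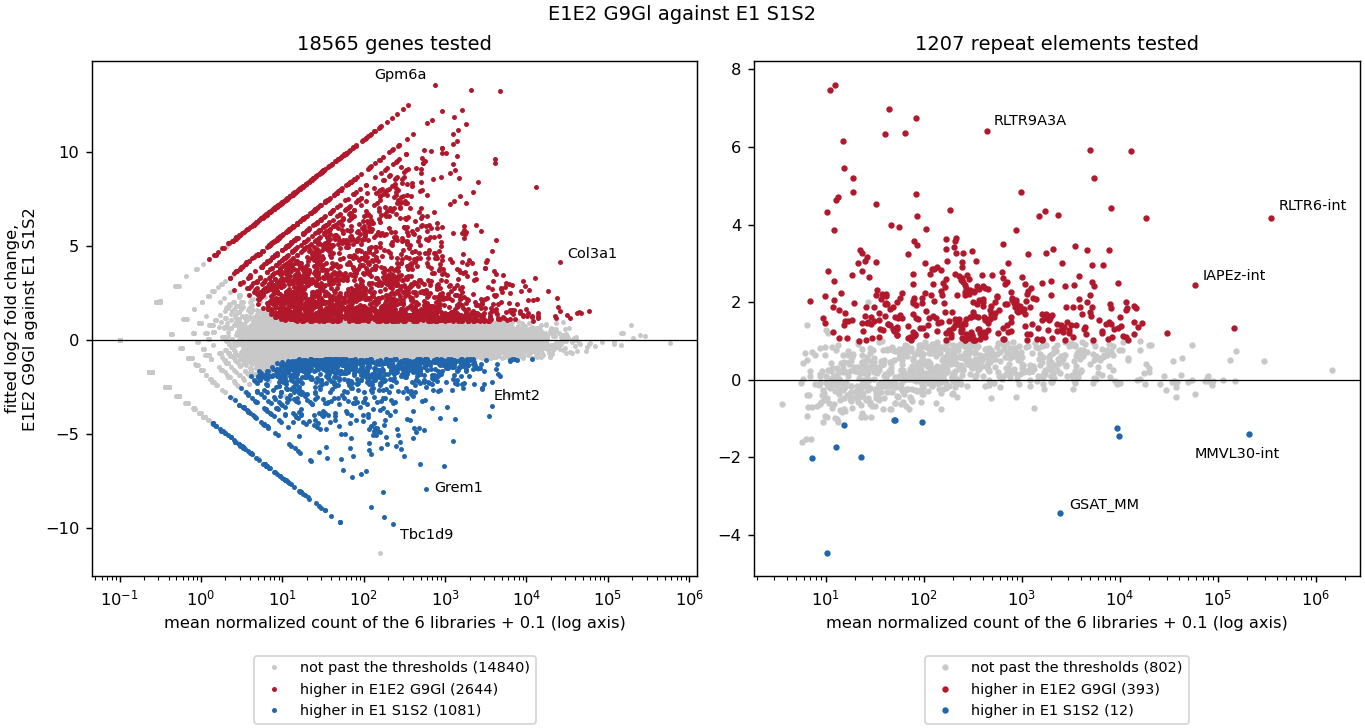
Log2 fold change of *E1E2 G9Gl* over *E1 S1S2* (vertical axis) against the mean normalized count of the 6 libraries + 0.1 (log axis), for genes and for repeat elements, with called features coloured and named examples marked. Rising elements dominate among the repeats (393 against 12), while genes move both ways (2644 against 1081); the slanted rows of points at low levels are genes with no or few reads in one line.

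Each line was also set against its own base. The step from *E1E2* adds *G9a* and *Glp* mutations, and the step from *E1* adds *Suv39h1* and *Suv39h2* mutations. Each step also goes to a newly isolated clone. The added mutations and the clone cannot be told apart in a step, nor in the comparison of the steps. From *E1E2* to *E1E2 G9Gl*, 2754 genes (14.8%) were higher and 1258 (6.78%) lower, along with 405 higher (33.6%) and 12 lower (0.994%) repeat elements. From *E1* to *E1 S1S2*, 801 genes (4.31%) were higher and 696 (3.75%) lower, with 18 repeat elements higher (1.49%) and 14 lower (1.16%). The first change minus the second, called the difference of steps below, uses 12 libraries with none shared between the steps. It was past the limits for 1919 genes higher (10.3%) and 1232 lower (6.64%), and for 356 elements higher (29.5%) and 13 lower (1.08%). Both contrasts hold the same *E1E2 G9Gl* and *E1 S1S2* libraries, so a call in one is not independent of a call in the other, and the values of both are given side by side. Of the 2644 genes higher between the lines 650 had 10 reads or fewer over the 6 libraries of *E1* and *E1E2*, which leaves their difference of steps poorly measured. Of the 1081 lower genes this held for 28.

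The genes that rose most were silent or nearly so in *E1 S1S2*. *Prl3d2*, *Prl3d3* and *Prl3d1* encode placental lactogens, prolactin-like hormones made by trophoblast giant cells. *Prl3d2* (chromosome 13 from 27121698 to 27127555) had 3980.5, 4145 and 4203 normalized counts in *E1E2 G9Gl* and 0, 0 and 0.899 in *E1 S1S2*, a ratio of 14334 (95% counting interval 2572 to 566210). *Prl3d3* had 3064, 3289.6 and 3417 against 0.783, 0.906 and 0, a ratio of 5670.2 (95% counting interval 1569 to 46828), and *Prl3d1* 1164, 1189.8 and 1233 against 0, 0 and 0.899, a ratio of 4169 (95% counting interval 748 to 164734). All 3 were also called higher in the difference of steps. Their transcripts are 96.2 to 98.1% identical to each other, so the division of reads among the 3 genes is uncertain. The 250 bases before each start site (RefSeq, GRCm38.p6, plus strand of chromosome 13) are shown because the 3 genes moved together. Overlapping matches to TATATA, a letter pattern that reads the same on both strands, are in capitals. The first match starts 29, 46 and 50 bases before the start site of *Prl3d1*, *Prl3d2* and *Prl3d3*, so the windows are offset. Aligned end to end they are 83.0 to 96.5% identical, a value lowered by the gaps of this offset, which were counted as differences. The windows lie at chr13:27093939-27094188, chr13:27121445-27121694 and chr13:27156544-27156793.
Prl3d1: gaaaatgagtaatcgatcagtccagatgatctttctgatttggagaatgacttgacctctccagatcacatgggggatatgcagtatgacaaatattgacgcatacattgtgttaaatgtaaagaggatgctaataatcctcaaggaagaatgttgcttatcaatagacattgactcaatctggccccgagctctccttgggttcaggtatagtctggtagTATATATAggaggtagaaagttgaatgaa
Prl3d2: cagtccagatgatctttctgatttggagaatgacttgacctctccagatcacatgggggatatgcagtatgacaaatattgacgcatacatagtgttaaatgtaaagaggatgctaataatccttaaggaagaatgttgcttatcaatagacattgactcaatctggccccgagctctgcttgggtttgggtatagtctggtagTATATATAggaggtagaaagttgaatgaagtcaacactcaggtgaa
Prl3d3: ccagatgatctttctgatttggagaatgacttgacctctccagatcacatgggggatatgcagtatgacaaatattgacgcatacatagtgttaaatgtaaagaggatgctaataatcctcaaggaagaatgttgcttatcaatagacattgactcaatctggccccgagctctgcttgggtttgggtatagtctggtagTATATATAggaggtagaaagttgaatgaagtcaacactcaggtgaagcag
TATATA is present in the 250 bases of 5.56% of 27025 promoters in the table and of 2.21% of the 11111 tested genes with a promoter there. A match is a description of the letters only.

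Other genes of the largest rises have roles in metabolism, neurons and imprinting. *Aldh1a1*, a retinaldehyde dehydrogenase that makes retinoic acid (chromosome 19 from 20492715 to 20643465), had 9363, 9324 and 9372 in *E1E2 G9Gl* and 0.783, 0 and 1.799 in *E1 S1S2*, a ratio of 10891 (95% counting interval 3726 to 52816). *Gpm6a*, a neuronal membrane glycoprotein (chromosome 8 from 54954843 to 55060871), had 1505, 1544 and 1499.9 against 0 in each library, at least 1766-fold higher when 3 reads over the 3 *E1 S1S2* libraries are taken as the floor. *Ndn*, the paternally expressed imprinted gene necdin (chromosome 7 from 62346569 to 62350262), had 491, 494 and 535 against 0 in each library, at least 588-fold higher. For these 3 genes no library of one line came near those of the other. On the same floor *Fhit*, a diadenosine triphosphate hydrolase, was at least 825-fold higher, *Gpx7*, an oxidative protein folding enzyme of the endoplasmic reticulum, at least 707-fold, and *Ky*, a muscle protein, at least 516-fold. The mucin-like *Parm1*, *Vat1l* and *Ly6f*, of the Ly6 family of surface proteins, had 1 to 2 reads in *E1 S1S2*. Their ratios were 6506 (95% counting interval 1167 to 257030), 4542 (95% counting interval 1257 to 37513) and 4768 (95% counting interval 855 to 188359). Of the 12 genes, *Gpm6a*, *Gpx7* and *Ndn* were not called in the difference of steps (edgeR adjusted p = 1.00 for each). *Gpm6a* had base means of 0 in *E1* and 0.328 in *E1E2*, and *Ndn* of 0 and 0.369, close to 0 in both. *Gpx7* had 0 in *E1* but 68.8 in *E1E2*, so that it was present in the base of the G9a/Glp branch.

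The largest falls were in signalling and transport genes with a clear level in *E1 S1S2*. *Grem1*, gremlin, a secreted antagonist of bone morphogenetic proteins (chromosome 2 from 113746164 to 113758646), had 6.47, 3.47 and 3.89 in *E1E2 G9Gl* and 1133, 1157 and 1148 in *E1 S1S2* (-7.90 ± 0.20, edgeR adjusted p = 1.31e-19), beside a WT mean of 3242. *Dclk1*, a microtubule-binding kinase (chromosome 3 from 55242364 to 55539068), had 9.71, 10.4 and 10.4 against 969.9, 1015 and 974 (-6.59 ± 0.14, edgeR adjusted p = 7.48e-21). In both genes the *E1E2 G9Gl* libraries were near the bottom of the range and all *E1 S1S2* libraries high. The potassium channel genes *Kcnn4* (-5.78) and *Kcnq5* (-6.06), the adaptor *Shc2* (-5.84), the actin regulator *Eps8l2* (-6.16) and the glypican *Gpc6* (-6.97) fell too. With 1 to 3 reads in *E1E2 G9Gl*, *Tbc1d9*, of the Rab GTPase-activating family, *Asap2*, an Arf GTPase-activating protein, *Cdyl2*, a chromodomain reader of methylated H3K9, and *Gjb2*, connexin 26, were higher in *E1 S1S2* by ratios of 1167 (95% counting interval 209 to 46120), 909 (95% counting interval 163 to 35916), 626 (95% counting interval 112 to 24756) and 293 (95% counting interval 99.96 to 1422). *Asap2* shares exon bases with 3 predicted genes on its own strand, among them 335 with *Gm21989*, so part of its count may be split, and *Tbc1d9* and *Eps8l2* share 819 and 1729 with *Gm10645* and *B230206H07Rik* on the opposite strand. All 12 of the largest falls but *Gpc6* (-1.69, edgeR adjusted p = 0.0856) were also called lower in the difference of steps.

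The repeat elements higher in *E1E2 G9Gl* than in *E1 S1S2* were mostly long terminal repeat (LTR) retroelements and LINEs, the autonomous retrotransposons without LTRs. Of 579 LTR elements 252 were higher and 5 lower, and of 255 LINE elements 105 and 1, beside 32.6% higher and 0.994% lower over all elements. Of 37 SINE elements 0 were called in either direction by edgeR or DESeq2, where 3 were higher and 2 lower at an unadjusted p under 0.05 alone, and of 213 DNA transposons 27 were higher and 2 lower. The median over all elements was 0.59 when scaled by the genes and -0.037 when scaled by the repeats themselves, a setting under which 228 elements were higher and 75 lower. The summed LTR elements had 2373713, 2287818 and 2276360 normalized counts in *E1E2 G9Gl* and 1050768, 1097171 and 1088058 in *E1 S1S2*, a ratio of 2.14. For LINEs the sums were 806977, 772644 and 784808 against 323862, 367164 and 341626, a ratio of 2.29. The libraries of the 2 lines did not overlap for either class, and the two-sided exact permutation test gave p = 0.1, the smallest that 3 libraries against 3 allow. SINEs had a ratio of 0.971 (exact permutation p = 0.4), DNA transposons 1.13, which turned to 0.733 with factors from repeats alone, and satellites 0.829 (both with an exact permutation p of 0.1).

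Among the families, 7 of 56 (12.5%) were called higher and 0 (0%) lower by edgeR, the same numbers as by DESeq2, with 3 families lower at an unadjusted p under 0.05 alone. ERVK, the family of the intracisternal A particles (IAP), was higher by 1.55 (SE 0.09, edgeR adjusted p = 3.59e-13), L1 by 1.21 (SE 0.11, edgeR adjusted p = 1.15e-09) and ERV1, the gammaretrovirus-like family, by 1.03 (SE 0.12, edgeR adjusted p = 7.52e-08); all 3 kept their direction but fell under the 2-fold limit with factors from repeats alone. ERV1 was at 1.93 without MMVL30-int, the element that was largest over all libraries and that was itself lower in *E1E2 G9Gl*. Of the ERV1 means of 1185565 in *E1E2 G9Gl* and 581790 in *E1 S1S2*, RLTR6-int alone held 668732 and 36921. The RLTR6-int means thus differ by more than the ERV1 means do. As summed means, the rest of the family was not higher in *E1E2 G9Gl*. A fit of the family without RLTR6-int was not run. By element, 154 of 270 ERVK, 100 of 224 L1, 50 of 105 ERV1, 29 of 92 ERVL and 13 of 92 ERVL-MaLR elements were higher, and 1, 1, 4, 0 and 0 lower. Beside the 32.6% of all elements that were higher, the share of ERVL lay near and that of ERVL-MaLR below. ERVL and ERVL-MaLR as totals were at 0.67 and 0.67, under the limit.

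The L1 entries named L1Md, which are the mouse L1 subfamilies and hold the youngest copies, had 58 of 63 elements higher, with a median log2 fold change of 1.87. The other 161 L1 entries had 42 higher and 1 lower, with a median of 0.54. Of all repeat elements 32.6% were higher and 0.994% lower. The rise was not particular to L1Md, since 16 of 21 entries whose name starts with Lx were higher, with a median of 1.39. Within L1Md, 17 of 18 L1MdA, 12 of 12 L1MdF and 7 of 7 L1MdTf elements were higher, and entries for the 5′ end, which holds the L1 promoter, had a median of 2.16 over 38 elements beside 1.66 over the 25 other entries. By the difference of steps 54 of the 63 L1Md elements were higher, with a median of 1.70. The step from *E1* to *E1 S1S2* had a median of 0.20 over the same elements. Reads of near-identical L1 copies are shared among subfamilies by the counting, so the entries are not independent of each other.

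Of 25 IAP elements 19 were higher and 1 lower, beside 32.6% and 0.994% of all elements, with a median of 2.22. The internal part of IAPEz, the most studied IAP group, had 98663, 101635 and 99363 normalized counts in *E1E2 G9Gl* and 18126, 18748 and 18397 in *E1 S1S2* (2.44 ± 0.09, edgeR adjusted p = 1.51e-26). IAP1-MM_I-int had 25499, 26105 and 25803 against 405, 432 and 472, and its LTR, IAP1-MM_LTR, 9645, 9957 and 9473 against 153, 168 and 162, log2 fold changes of 5.89 and 5.91. The libraries of the 2 lines did not overlap for these 3 elements, and each was called higher in the difference of steps. For IAP1-MM_I-int the change over the base was -1.83 in *E1 S1S2* and 6.62 in *E1E2 G9Gl*. ETnERV-int, another ERVK element, had 16376, 15750 and 14934 against 672, 735 and 759.99 (4.44 ± 0.12, edgeR adjusted p = 2.98e-32). RLTR9A3A (6.42), ERVB3_1-I_MM (4.84) and MURVY-int (5.19) complete the 6 largest rises, and MMERVK10C-int was higher by 1.35. MERVL-int, the ERVL element known for its activity in early embryos, was at 1.06 in the comparison of the lines and was not called in the difference of steps (0.92).

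Elements of the murine leukaemia virus and VL30 groups went in different directions. RLTR6-int had 704074, 670365 and 631756 normalized counts in *E1E2 G9Gl* and 37805, 36263 and 36695 in *E1 S1S2* (4.18 ± 0.17, edgeR adjusted p = 3.82e-26). MMVL30-int, the internal part of the VL30 retrotransposons, had 111826, 112665 and 116646 against 294215, 306612 and 300403 (-1.40 ± 0.14, edgeR adjusted p = 1.50e-12), where the WT mean was 4849 and the *E1* mean 163086. The LTR entries RLTR6_Mm (-1.45) and RLTR6C_Mm (-1.25) fell with it. Of the 4 entries whose name starts with RLTR6, 2 were higher, with a largest value of 4.18, and 2 lower. MuLV-int had 168720, 147436 and 155509 against 113117, 104955 and 115478, a log2 fold change of 0.50 that was not called and turned to -0.13 with factors from repeats alone. Its base differed between the branches, with means of 480221 in *E1* and 62612 in *E1E2*, and the difference of steps was 3.44 (edgeR adjusted p = 5.16e-24).

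Major satellite RNA went in the direction opposite to most called repeats. GSAT_MM, the entry for the major satellite of pericentric heterochromatin, had 461, 397 and 403 normalized counts in *E1E2 G9Gl* and 4216, 4876 and 4444 in *E1 S1S2* (-3.42 ± 0.12, edgeR adjusted p = 5.55e-28). All 3 *E1 S1S2* libraries were high and all *E1E2 G9Gl* libraries low, near the means of 586 in *E1E2*, 433 in *E1* and 269 in WT. From *E1* to *E1 S1S2* it was higher by 3.38, and from *E1E2* to *E1E2 G9Gl* it changed by -0.48, which was not called. The difference of steps was -3.86 (edgeR adjusted p = 1.96e-24). MMSAT4, another satellite entry, had 5090.5, 5333 and 5279 against 5126, 5963 and 5507, which overlap (-0.08, edgeR adjusted p = 0.59). SYNREP_MM had 446, 348 and 299 against 168, 218 and 208, without overlap but under the 2-fold limit (0.88), and was called higher in the difference of steps (2.30). GSAT_MM was the one satellite element of 5 that was called. The other lower elements were IAPEY4_LTR, LTR109A2, LX3, DNA1_Mam, UCON25, X10b_DNA and the tRNA entries tRNA-Gln-CAG and tRNA-Gly-GGG, with the 3 of the VL30 group.

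**Figure D3:**
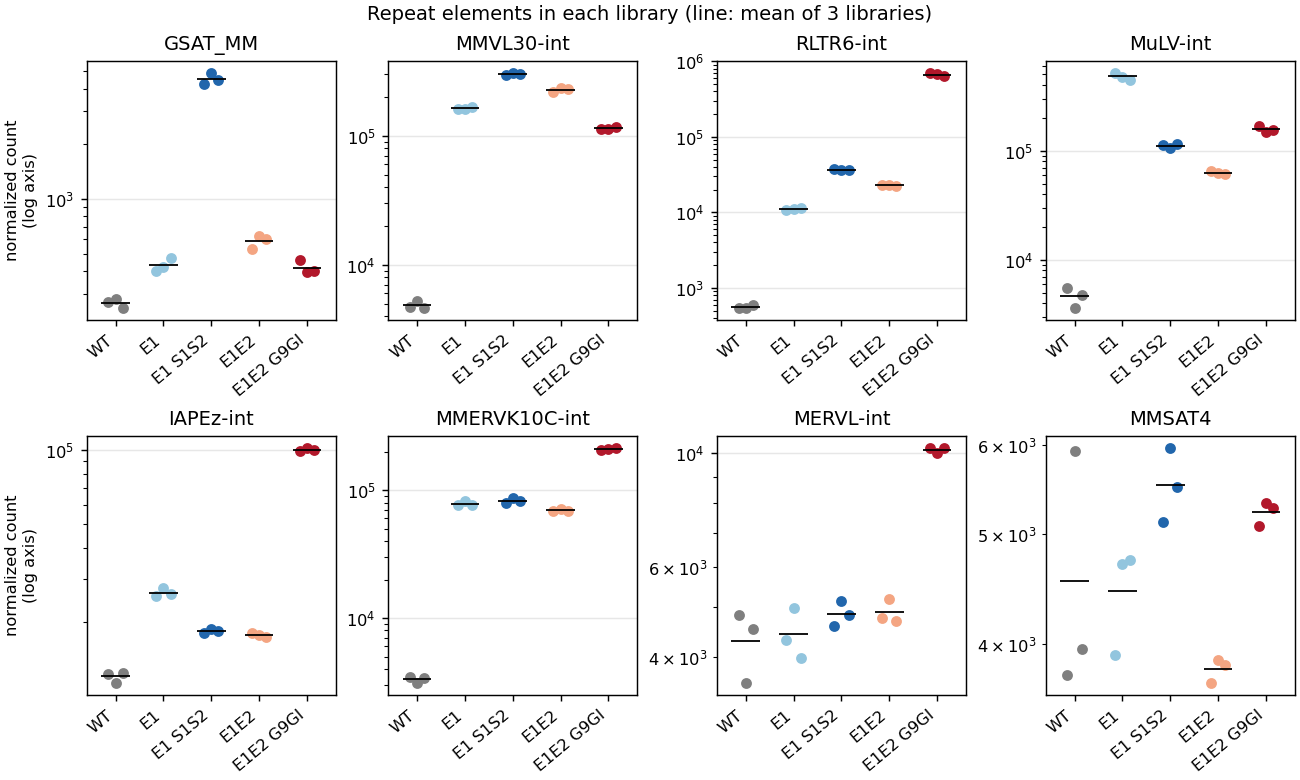
Normalized count on a log axis for 8 repeat elements in the libraries of WT, *E1*, *E1 S1S2*, *E1E2* and *E1E2 G9Gl*, with 1 point per library and a line at the group mean. GSAT_MM is high in *E1 S1S2* alone among these groups, RLTR6-int and IAPEz-int are highest in *E1E2 G9Gl*, and MMSAT4 overlaps between the 2 compound lines.

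Genes of pattern recognition and the interferon response were mostly higher in *E1E2 G9Gl*, with a smaller set higher in *E1 S1S2*. Of 57 members tested, 34 were higher and 6 lower, beside 14.2% and 5.82% of all genes, and the median log2 fold change was 1.43. The 2'-5' oligoadenylate synthetases, which activate RNase L on double-stranded RNA, were among the largest: *Oas1g* (chromosome 5 from 120876142 to 120887613) had 764, 685 and 721 normalized counts in *E1E2 G9Gl* and 25.8, 22.6 and 15.3 in *E1 S1S2* (5.07 ± 0.15, edgeR adjusted p = 2.54e-18). *Gbp7*, an interferon-induced guanylate-binding protein, had 531, 609 and 609 against 18.8, 25.4 and 18.9 (4.79 ± 0.27, edgeR adjusted p = 2.86e-13), and shares 637 exon bases with *Gm43802* on its own strand. *Psmb8*, a subunit of the immunoproteasome that cuts peptides for antigen presentation, had 313, 338 and 295 against 6.26, 1.81 and 3.598 (6.26 ± 0.28, edgeR adjusted p = 3.03e-15). In none of these genes did the lines overlap. *Iigp1*, an interferon-inducible GTPase, was higher by 6.04. In the difference of steps *Oas1g* (3.54) and *Psmb8* (4.89) were called, while *Gbp7* (1.19, edgeR adjusted p = 0.06) and *Iigp1* (2.20, edgeR adjusted p = 0.0442) were not.

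3 class I antigen presentation genes, chosen after their values were seen, were also higher. *H2-K1* had 17126, 16853 and 16832 in *E1E2 G9Gl* and 2413, 2202 and 2361 in *E1 S1S2* (2.86), *H2-D1* 18799, 18100 and 18039 against 3027, 2777 and 2979 (2.64), and *B2m*, the light chain of class I, was higher by 2.17; all 3 were called in the difference of steps as well. Receptor genes were higher too. *Tlr3*, the endosomal sensor of double-stranded RNA (chromosome 8 from 45395665 to 45411080), had 989, 1066 and 917 against 124, 132 and 118 (2.99 ± 0.13, edgeR adjusted p = 4.14e-15). *Tlr4*, the lipopolysaccharide receptor, had 1979.5, 2118 and 1958 against 355, 331 and 314 (2.60 ± 0.11, edgeR adjusted p = 2.16e-15). The cytosolic RNA sensors *Ifih1* (MDA5) and *Ddx58* (RIG-I), also chosen after seeing the values, were higher by 1.27 and 1.22. All 4 sensors were higher in every *E1E2 G9Gl* library, and only the 2 Toll-like receptors passed in the difference of steps.

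For *Irf7* and *Irf9*, transcription factors of the response, the comparison of the lines and the difference of steps parted. *Irf7* had 841, 822 and 834 normalized counts in *E1E2 G9Gl* and 325, 261 and 313 in *E1 S1S2* (1.47 ± 0.23, edgeR adjusted p = 5.93e-06), and a difference of steps of -1.13 (edgeR adjusted p = 0.0125). *Irf9* was at 1.01 in the comparison of the lines, a call that 3 alternatives moved to just under the 2-fold limit, and -0.32 in the difference of steps. From *E1E2* to *E1E2 G9Gl*, 27 members of the list were higher and 9 lower; from *E1* to *E1 S1S2*, 24 were higher and 1 lower. The difference of steps had 14 members higher and 12 lower, with a median of -0.20, so that the direction of the list's median in the comparison of the lines did not hold relative to each line's base.

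The members lower in *E1E2 G9Gl* were *Oasl1*, *Irf5*, *Rsad2*, *Zbp1*, *Cxcl10* and *Ccl5*. *Cxcl10*, a chemokine that attracts T cells (chromosome 5 from 92346638 to 92348889), had 765, 854 and 877 in *E1E2 G9Gl* and 4893, 5082 and 4742 in *E1 S1S2* (-2.56 ± 0.27, edgeR adjusted p = 2.31e-08). *Ccl5*, another T cell chemokine, had 24.8, 21.97 and 25.9 against 377, 408 and 389 (-4.01 ± 0.39, edgeR adjusted p = 5.16e-09). *Rsad2*, viperin, an antiviral enzyme, had 673, 663 and 654 against 2522, 2553 and 2466 (-1.92 ± 0.19, edgeR adjusted p = 8.77e-09). In all 3 the *E1 S1S2* libraries were the high ones, without overlap. *Zbp1*, a sensor of Z-form nucleic acids, fell by 2.71. *Isg15* (0.10) and *Ifit1* (-0.43) did not pass the limits between the lines, and *Ifit1* was called lower in the difference of steps (-1.83).

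Promoters of 2 higher and 2 lower members are given, since both sets hold the same letters. The search was for GAAANNGAAA on either strand (TTTCNNTTTC on the other), the core of the interferon-stimulated response element, in the 250 bases before the start site (RefSeq, GRCm38.p6), with matches in capitals and each sequence read along the strand of its gene. *Oas1g* lies at chr5:120887614-120887863 (minus strand) and has 2 overlapping matches, *Gbp7* at chr3:142530086-142530335 (plus strand) has 1, *Cxcl10* at chr5:92348890-92349139 (minus strand) has 1, and *Rsad2* at chr12:26456453-26456702 (minus strand) has 1.
Oas1g: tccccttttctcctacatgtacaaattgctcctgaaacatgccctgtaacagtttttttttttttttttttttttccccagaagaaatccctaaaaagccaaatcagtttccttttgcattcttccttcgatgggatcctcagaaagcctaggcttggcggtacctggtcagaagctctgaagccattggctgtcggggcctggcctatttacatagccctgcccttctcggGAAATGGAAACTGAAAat
Gbp7: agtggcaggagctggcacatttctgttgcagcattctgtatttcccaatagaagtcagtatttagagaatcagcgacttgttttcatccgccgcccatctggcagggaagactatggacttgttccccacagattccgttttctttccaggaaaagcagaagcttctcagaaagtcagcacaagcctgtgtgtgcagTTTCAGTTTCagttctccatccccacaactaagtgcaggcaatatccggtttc
Cxcl10: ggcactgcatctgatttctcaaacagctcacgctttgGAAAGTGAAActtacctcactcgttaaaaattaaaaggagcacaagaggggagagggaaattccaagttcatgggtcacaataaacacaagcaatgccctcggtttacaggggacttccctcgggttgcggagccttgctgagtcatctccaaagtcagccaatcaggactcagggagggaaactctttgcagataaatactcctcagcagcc
Rsad2: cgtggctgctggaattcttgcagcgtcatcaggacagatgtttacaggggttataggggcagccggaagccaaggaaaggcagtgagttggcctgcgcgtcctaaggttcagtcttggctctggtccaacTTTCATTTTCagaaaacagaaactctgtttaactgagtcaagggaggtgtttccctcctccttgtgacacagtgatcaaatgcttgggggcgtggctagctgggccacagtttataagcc
The pattern was present in 3.04% of 27025 promoters and in 2.68% of the 11111 tested genes with a promoter in the table. Of the 42 list members with a promoter 17 (40.5%) held it: 10 of 23 higher members (43.5%), 2 of 4 lower members (50%) and 5 of 15 that were not called (33.3%). The windows of *Psmb8*, *Tlr3* and *Irf7* held no match.

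**Figure D4:**
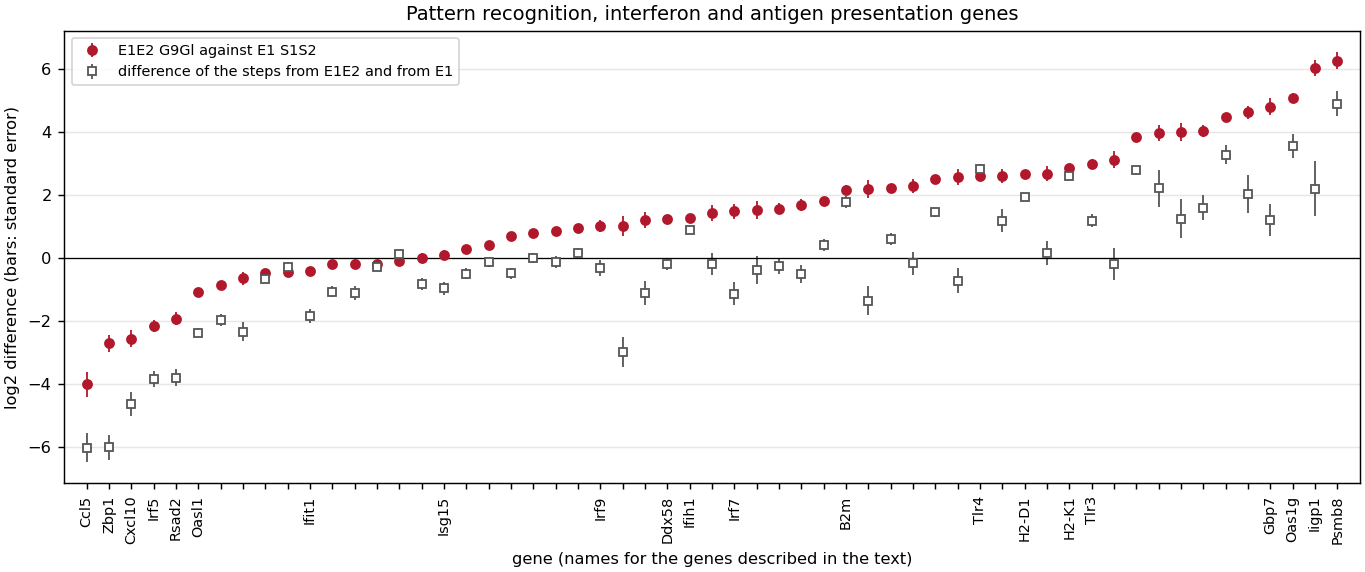
Log2 fold change with its SE for the 57 pattern recognition and interferon genes, ordered by the first of 2 values and with names for the genes described in the text, as circles for *E1E2 G9Gl* over *E1 S1S2* and as squares for the difference of steps. Of the circles 34 are called higher and 6 lower, and of the squares 14 and 12, and most squares lie below their circles.

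Of 28 collagen genes 18 were higher in *E1E2 G9Gl*, beside 14.2% of all genes, with a median of 1.55. None was called lower by edgeR or DESeq2, and 1 was lower at an unadjusted p under 0.05 alone. *Col3a1*, the chain of fibrillar collagen III (chromosome 1 from 45311538 to 45349706), had 48326, 49210 and 48322 normalized counts in *E1E2 G9Gl* and 2921, 2541 and 2770.2 in *E1 S1S2* (4.15 ± 0.08, edgeR adjusted p = 3.67e-22). Its WT mean of 18077 lay between the 2 lines. *Col6a2*, a chain of the microfibrillar collagen VI, had 6240.5, 5527 and 5693 against 434, 357 and 419 (3.85 ± 0.11, edgeR adjusted p = 3.91e-19). *Col28a1*, a minor collagen, had 611, 600.1 and 593 against 2.35, 3.62 and 2.698 (7.65 ± 0.27, edgeR adjusted p = 4.70e-15), and *Col11a1*, of cartilage fibrils, was higher by 4.22. Among members chosen after seeing the values, *Col1a2* was higher by 2.22 and the basement membrane chain *Col4a1* by 1.41. *Col1a1*, the partner chain of *Col1a2* in collagen I, had 49959, 36901 and 39077 against 49022, 43502 and 52376, which overlap (-0.20, edgeR adjusted p = 0.256). In the difference of steps 16 collagen genes were higher and 3 lower. From *E1* to *E1 S1S2* 2 were higher and 5 lower, and from *E1E2* to *E1E2 G9Gl* 13 were higher and 0 lower.

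Markers of several cell types stood apart between the lines, and in bulk RNA a change in the number of cells of a type cannot be told from a change in RNA per cell. Of 21 fibroblast markers tested 8 were higher and 2 lower, beside 14.2% and 5.82% of all genes. The markers given with values were chosen after those were seen. *Thy1*, a surface marker of many fibroblasts, had 426, 389.7 and 419.7 in *E1E2 G9Gl* and 0.783, 0 and 1.799 in *E1 S1S2*, a ratio of 479.6 (95% counting interval 164 to 2329), beside a WT mean of 199. *Dcn*, decorin, went the other way, with 0, 2.31 and 3.89 against 48.5, 37.1 and 55.8. The smooth muscle actin gene *Acta2* had 7346, 7128 and 7481 against 585, 575 and 604 (3.64 ± 0.10, edgeR adjusted p = 3.68e-19) beside a WT mean of 5946, and *Tagln* was higher by 1.20. The other 3 smooth muscle markers tested, *Smtn*, *Myh11* and *Cnn1*, were not called, and the median of the 5 was -0.006. The summed smooth muscle markers, most of whose difference came from *Acta2*, were 9722 to 10212 in *E1E2 G9Gl* and 2326.8 to 2505.8 in *E1 S1S2*. Their part in the collagen result was not tested.

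Of 10 haematopoietic markers 5 were tested, with 4 higher. Of all genes 14.2% were higher and 5.82% lower, the shares that the other counts here also stand against. A marker entered the test only where some group of libraries held enough reads. *Ptprc*, *Lyz2* and *Itgam* had means near 0 in WT, *E1* and *E1E2*. Among the groups used here they therefore passed through *E1E2 G9Gl* alone, and the share of haematopoietic markers called was largely set by that filter. The other marker counts depend on the same filter. *Itgam*, integrin alpha M of myeloid cells, had 506, 519 and 497 against 0.783, 1.81 and 0.899 (8.64 ± 0.22, edgeR adjusted p = 1.51e-18) but shares 3450 exon bases with *Gm49368* on its own strand. *Ptprc*, the leukocyte antigen CD45, had 45.3, 47.4 and 50.5 against 0 in each library, at least 55.4-fold higher, and *Lyz2* had a ratio of 266 (95% counting interval 73.2 to 2207). *Cd3e*, the remaining higher marker, had 37.8, 40.5 and 47.9 against 0 in each library, and *Cd68* (-0.54) was not called. The defining myeloid markers *Adgre1*, *Tyrobp* and *Laptm5* were at 0 in all 6 libraries, and *Csf1r* was at 0 in *E1E2 G9Gl*. Summed, the 10 markers gave 808 to 855 in *E1E2 G9Gl* and 113 to 145 in *E1 S1S2*. Epithelial markers summed to 3774 to 3889 and 834 to 909, with most of the difference from *Krt19* and from *Grhl2*, an epithelial transcription factor, higher by 5.90. Of the 7 epithelial markers tested 4 were higher and 1 lower, *Cldn4* at -2.96, while *Krt8* (-0.50) and *Epcam* (-1.08) were not called and *Cdh1* and *Krt18* were under 10 normalized counts in every library. Adipocyte markers summed to 1342 to 1393 and 11.0 to 15.4, carried by *Lpl*, lipoprotein lipase, with 1002, 1056 and 974 against 0.783, 1.81 and 3.598, and *Pparg*, with 375, 323 and 348 against 0.783, 0.906 and 0.899. These were the 2 called of 4 adipocyte markers tested. *Fabp4* (0.60) and *Cebpa* (-1.58) were not called, and *Plin1* and *Cfd* were at 0 in all 6 libraries. Neural markers summed to 2291 to 2418 and 999.9 to 1069, with *Map2*, a dendritic microtubule protein, at 699, 649 and 674 against 0, 1.81 and 4.497 and *Rbfox3* at 0 in all 6 libraries. Of the 5 neural markers tested 3 were higher. *Tubb3*, which held the largest part of both sums, was not called (0.63). In each of these 4 lists the sums did not overlap. Endothelial markers summed to 97.1 to 109 and 59.4 to 81.4, skeletal muscle markers to 360 to 383 and 118 to 126, cartilage and bone markers to 9.07 to 20.8 and 19.9 to 31.5, and pluripotency markers to 354 to 456 and 429 to 470.1, the last 2 with overlap. The part of these marker lists in the interferon and other gene results was not tested.

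In the p53 pathway more genes were lower than higher in *E1E2 G9Gl*. Of 29 genes, p53 and its targets, 2 were higher and 8 lower, beside 14.2% and 5.82% of all genes, with a median of -0.55. *Cdkn1a*, p21, the inhibitor of cyclin-dependent kinases (chromosome 17 from 29090976 to 29100727), had 243, 234 and 242 normalized counts in *E1E2 G9Gl* and 827, 872 and 882 in *E1 S1S2* (-1.84 ± 0.07, edgeR adjusted p = 4.85e-17). *Pmaip1*, the proapoptotic protein Noxa, had 20.5, 26.6 and 15.5 against 783, 839 and 759.99 (-5.23 ± 0.17, edgeR adjusted p = 6.19e-18). *Trp53inp1*, a p53-induced stress protein, had 216, 205 and 228 against 964, 1091 and 985 (-2.23 ± 0.07, edgeR adjusted p = 1.59e-17). The *E1 S1S2* libraries were higher than all *E1E2 G9Gl* libraries in the 3 genes. For *Cdkn1a* the *E1E2 G9Gl* mean lay near the WT mean of 209.6. The difference of steps was larger in size, at -4.07 for *Cdkn1a*, -4.35 for *Trp53inp1* and -5.35 for *Pmaip1*, and had 1 of the 29 genes higher and 16 lower. From *E1* to *E1 S1S2* 6 of the 29 were higher and 0 lower, and from *E1E2* to *E1E2 G9Gl* 1 was higher and 12 lower. *Dram1*, a p53-induced autophagy gene, was 1 of the 2 higher members, with 384, 410.5 and 359 against 35.2, 27.2 and 24.3 (3.72).

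Of 42 cell cycle genes 0 were higher and 2 (4.76%) lower by edgeR, beside 14.2% and 5.82% of all genes. DESeq2 gave the same 2 counts. At an unadjusted p under 0.05 alone, 12 were higher and 18 lower. *Ccnd2*, cyclin D2, had 2045, 1995 and 2041 against 4269, 4308 and 4293 (-1.08), and *Cdkn1c*, the imprinted inhibitor p57, was at -1.22. *Cdk1*, the mitotic kinase, was at 0.08 (edgeR adjusted p = 0.503), and *Rb1* at 0.30, under the 2-fold limit. Of 31 MAP kinase genes 2 (6.45%) were higher and 4 (12.9%) lower, beside 14.2% and 5.82% of all genes. *Mapk10*, the neuronal kinase JNK3, had 491, 501 and 518 against 2.35, 0 and 2.698 (8.09 ± 0.33, edgeR adjusted p = 4.94e-16), and *Mapk4* was higher by 4.77. *Map2k6*, a kinase upstream of p38, had 0 in each library against 98.6, 102 and 103, at least 86.6-fold lower in *E1E2 G9Gl*, and *Map3k5*, ASK1, was higher in *E1 S1S2* by a ratio of 83.7 (95% counting interval 14.7 to 3333). *Mapk11*, a p38 kinase, was at -0.29, under the limit.

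Chromatin genes apart from the targeted ones were mostly not called. Of 30 H3K9 readers, cofactors and demethylases 1 was higher and 3 were lower, beside 14.2% and 5.82% of all genes. *Cdyl2* and the demethylase *Kdm7a* (-1.22) fell with *Hmga1* (-1.25), an AT-hook protein, while the demethylase *Kdm4d*, with 15.1, 9.25 and 11.7 against 3.13, 0 and 1.799, rose by 2.73. Of 14 DNA methylation genes *Mbd1*, a methyl-CpG-binding protein that partners with Setdb1, was the one called, with 5018, 5076 and 5063 in *E1E2 G9Gl* and 1141, 1036 and 1127 in *E1 S1S2* (2.20 ± 0.06, edgeR adjusted p = 1.35e-19). Of 29 Polycomb genes the one called was *Cbx7*, with 147, 182 and 149 against 7.05, 5.43 and 4.497 (4.77), which shares 100 exon bases with *Apobec3* on the opposite strand. Of 16 nuclear lamina genes 0 were called in either direction by edgeR or DESeq2, with 9 higher and 2 lower at an unadjusted p under 0.05 alone.

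Germline and sensory genes are as a rule silent in fibroblasts, and most of those tested had no or few reads in *E1 S1S2*. Of 17 germline and meiosis genes tested 5 were higher and 2 lower, beside 14.2% and 5.82% of all genes. *Tex19.1*, which restrains retrotransposons in the germline (chromosome 11 from 121146143 to 121148319), had 833, 882 and 848 normalized counts in *E1E2 G9Gl* and 8.61, 12.7 and 10.8 in *E1 S1S2* (6.32 ± 0.19, edgeR adjusted p = 1.79e-18). *Tex101* (7.19), *Tex15* (6.03) and the meiotic cohesin *Stag3* (3.30, chosen after seeing the values) rose, while *Spo11*, the enzyme of meiotic DNA breaks, had 0 in each library in *E1E2 G9Gl* and 23.5, 15.4 and 11.7 in *E1 S1S2*, at least 14.7-fold lower. *Rhox5*, an X-linked homeobox gene of the Rhox cluster, had 3464, 3679 and 3724 against 16.4, 33.5 and 21.6 (7.26 ± 0.12, edgeR adjusted p = 1.05e-22) and was also called in the difference of steps (9.06). Among Mage genes 2 of 9 were higher, *Magea10* at least 38.6-fold and *Mageb7-ps* by a ratio of 33.4 (95% counting interval 8.76 to 283).

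Of 23 olfactory receptor genes tested 12 were higher, and of 25 vomeronasal receptor genes 14 were higher and 1 lower. Of all genes 14.2% were higher and 5.82% lower. The deposited counts hold 1277 olfactory and 505 vomeronasal receptor genes, of which the others had too few reads. *Olfr872*, *Olfr873* and *Olfr874* are neighbours by number, with 223, 186 and 211, 39.9, 37.001 and 40.2 and 214, 209 and 212 in *E1E2 G9Gl* and no read in *E1 S1S2*; the bounds were at least 241-fold, 45.4-fold and 247-fold. *Olfr39* was at least 118-fold higher. *Vmn2r12* (239, 251 and 255) and *Vmn1r-ps29* (60.4, 63.6 and 69.9) had no read in *E1 S1S2*, at least 289-fold and 74.9-fold higher, *Vmn2r118* had a ratio of 499 (95% counting interval 88.9 to 19750), and *Vmn1r47* was at least 18.2-fold higher but lost its call with DESeq2. In the difference of steps 1 olfactory and 9 vomeronasal genes were higher, beside 10.3% of all genes. A member entered the test only where some group of libraries held enough reads, so these counts are of the genes that passed that filter.

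The Schlafen genes, interferon-inducible regulators of lymphocyte growth and of tRNA, had 7 of 8 members higher, where 14.2% of all genes were. *Slfn2* (chromosome 11 from 83065112 to 83070678) had 4371, 4558 and 4181 in *E1E2 G9Gl* and 14.9, 19.02 and 22.5 in *E1 S1S2* (7.86 ± 0.14, edgeR adjusted p = 4.06e-21). *Slfn1* was at least 65.9-fold higher, *Slfn3* had a ratio of 640.4 (95% counting interval 114 to 25347), and *Slfn4* was higher by 6.24. The list's median was 5.05, or 4.95 with the member at 0 set to its bound. By the difference of steps 2 of the 8 were higher.

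Imprinted genes went both ways, with 8 of 37 (21.6%) higher and 8 lower, where 14.2% and 5.82% of all genes were. Beside *Ndn*, *Mest* had 21.6, 15.03 and 22.02 in *E1E2 G9Gl* and no read in *E1 S1S2*, at least 22.7-fold higher, and shares 912 exon bases with *Copg2* on the opposite strand. *Tspan32*, in the imprinted domain of *Kcnq1*, had 290.2, 237 and 251 against 3.13, 1.81 and 5.396 (6.19). *Peg12*, of the same Prader-Willi region as *Ndn*, went the other way, with 9.71, 11.6 and 9.07 against 307, 292 and 269.8 (-4.82 ± 0.15, edgeR adjusted p = 6.95e-18). *Snrpn* was among the other higher members, and *Igf2*, *Phlda2* and *Peg10* among the other lower ones, named after their values were seen: *Snrpn* was at 1.81, *Igf2* at -2.91, *Phlda2* at -3.29 and *Peg10* at -1.31. Allele of origin was not measured.

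Transcription factors and ligands that pattern limbs and mesenchyme split in a similar way. Of 48 mesenchymal and limb factors 9 (18.8%) were higher and 10 (20.8%) lower, beside 14.2% and 5.82% of all genes. *Osr1*, a zinc finger factor of limb connective tissue (chromosome 12 from 9570116 to 9581500), had 9.71, 10.4 and 9.07 against 488, 487 and 471 (-5.61 ± 0.16, edgeR adjusted p = 7.83e-19). *Tbx4*, the T-box factor of the hindlimb, was higher by a ratio of 141 (95% counting interval 38.5 to 1172), *Lhx2* by a ratio of 61.99 (95% counting interval 16.7 to 519.7), and *Alx4* at least 38.2-fold. *Sox9*, the cartilage factor, chosen after seeing its values, fell by 3.09. Of 29 Hox genes 3 (10.3%, under the share of all genes) were higher and 0 lower by edgeR or DESeq2 (3 at an unadjusted p under 0.05 alone). *Hoxa13* had 20.5, 21.97 and 32.4 against 3.13, 0.906 and 0 (4.00) and *Hoxa11* 777, 772 and 758 against 262, 249.98 and 217 (1.66). *Hoxa11* shares 800 exon bases with *Hoxa11os*.

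Of 20 Wnt and Frizzled genes 3 were higher and 9 lower, beside 14.2% and 5.82% of all genes, the shares that the other counts here also stand against. *Wnt2b* (5.13) and, chosen after seeing the values, *Wnt5a* (2.54) rose, and *Wnt11* (-4.42), *Wnt6* (-3.76) and the receptor *Fzd3*, with 14.02, 9.25 and 7.77 in *E1E2 G9Gl* and 259, 293 and 252 in *E1 S1S2* (-4.65), fell. Of 16 ephrin and Eph genes 2 were higher and 7 lower, with the receptor *Ephb2* at 34.5, 39.3 and 33.7 against 684, 667 and 737 (-4.27 ± 0.14, edgeR adjusted p = 1.17e-17). *Ephb6* was at least 10.8-fold lower, and *Epha7* (2.73) and *Epha1* (2.16) were the higher members. Of 26 semaphorin and plexin genes, guidance ligands and their receptors, 11 were higher and 4 lower. *Sema3d* had 1204, 1089 and 1057 against 2.35, 0.906 and 0.899 (9.49 ± 0.32, edgeR adjusted p = 1.64e-17), *Sema4f* was higher by 8.18, and *Plxna4* and *Plxnb3*, with 1 read each in *E1 S1S2*, by ratios of 824 (95% counting interval 147 to 32613) and 545 (95% counting interval 97.3 to 21580). Of 15 BMP, GDF and inhibin genes 4 were higher and 6 lower. *Gdf6* was higher by a ratio of 1432 (95% counting interval 256 to 56615) and *Bmp6* by 3.12, while *Gdf15*, a stress-induced cytokine, had 3.24, 1.16 and 0 against 27.4, 27.2 and 33.3 (-4.12).

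Of 22 protocadherin gamma genes 6 were higher and 6 lower, beside 14.2% and 5.82% of all genes, the shares for the other counts here too. *Pcdhga1* (5.57) and *Pcdhga3* (3.001) were higher. *Pcdhgb1* and *Pcdhga2* were higher by ratios of 42.2 (95% counting interval 11.2 to 357) and 31.8 (95% counting interval 10.4 to 158). *Pcdhgc4* (-1.86), *Pcdhgc5* (-2.03) and *Pcdhgb6* (-2.05), named after seeing the values, were among the 6 lower members. The gamma genes share their last exons, over 2116 bases for some pairs, so the division of reads among them is uncertain. Of 13 protocadherin beta genes 2 were lower, *Pcdhb22* (-3.15) and *Pcdhb17* (-2.11), the second of which lost its call under 6 alternatives. The median of the beta genes was -2.11, or 0 with the 6 genes that had no read in one line set to the change that the floor allows. Of 366 zinc finger genes named Zfp 52 (14.2%) were higher and 21 (5.74%) lower, near the shares of all genes. *Zfp286* was at least 91.7-fold higher, and *Zfp667* and *Zfp980* were at least 27.4-fold and 17.9-fold lower. *Zfp978* was higher in *E1 S1S2* by a ratio of 156 (95% counting interval 53.1 to 758). Of 9 keratin genes 2 were higher and 1 lower, with *Krt19*, of simple epithelia, at 2509, 2589 and 2589 against 535, 539 and 568 (2.23), *Krt14* at 5.28 and *Krt13* at -1.70. Of single genes that the study names, *Zfp936* had 2.16, 4.63 and 5.18 against 0, 0.906 and 0, a ratio of 13.6 (95% counting interval 1.94 to 591), and its call was lost without *E1 S1S2* replicate 1 or 3 and without *E1E2 G9Gl* replicate 2 or 3. *Bbs9* (0.33) and *Cacna1i* (0.37) were under the limits, and *Treml4* had no read in any of the 6 libraries.

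**Figure D5:**
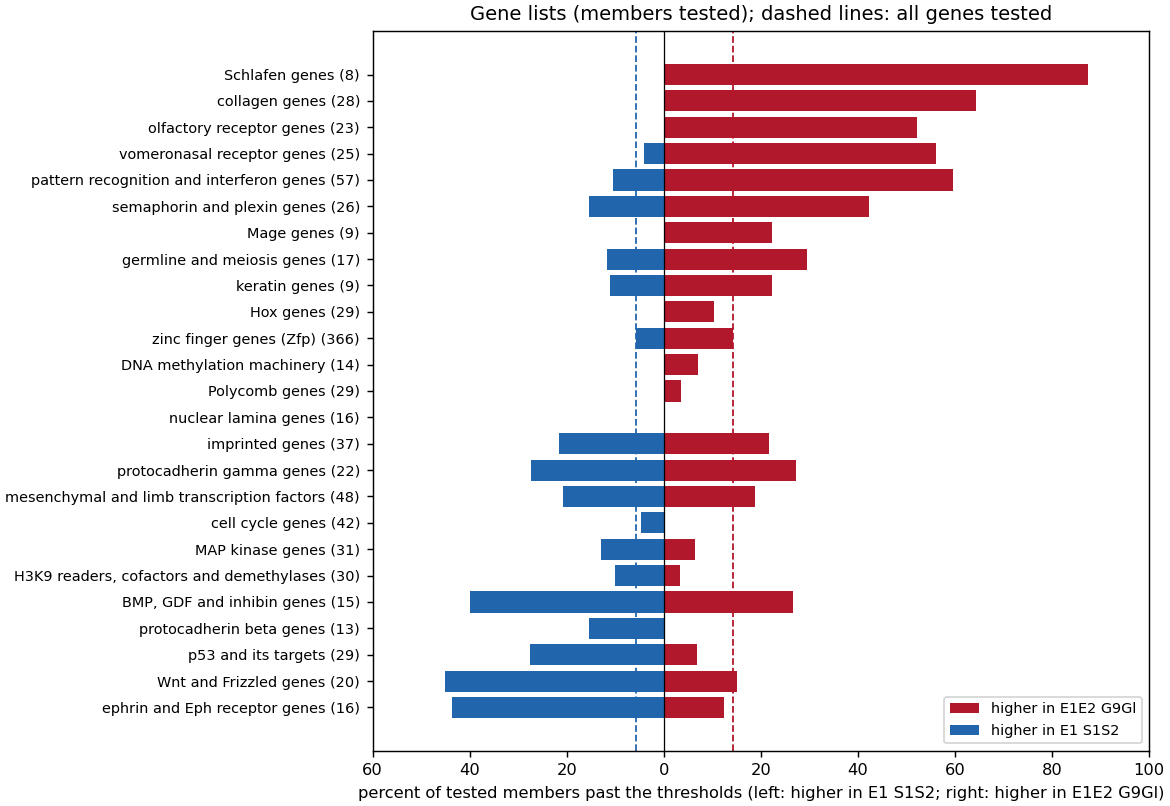
Share of tested members in percent that passed as higher in *E1E2 G9Gl* (right) or in *E1 S1S2* (left), for each gene list with at least 8 members tested, with dashed lines at the shares of all genes, 14.2% and 5.82%. The Schlafen, collagen and interferon lists lie furthest right, and the Wnt, Eph and BMP lists furthest left.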

How the data were processed

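Processed counts of 24 MEF libraries were used, of which the 3 *E1E2 G9Gl* and 3 *E1 S1S2* libraries are compared. Per the submitters' processing notes, cutadapt 1.8.1 and STAR 2.5.2b were used with GRCm38, and TEtranscripts produced the counts on genes and on repeat elements that the authors deposited. A read with several matching places is divided among them by TEtranscripts, so near-identical elements and paralogs are uncertain. The strand setting is not given in the sources used here. The deposited table holds 47937 gene and 1445 repeat entries, 1 malformed entry was left out, and 47224 gene identifiers had a symbol. Coordinates are those of GENCODE vM21 (GRCm38), over whole genes, with counts over exons.

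Genes (18565 after edgeR's filterByExpr by group) and repeats (1207) were fitted in edgeR 4.0.16 (limma 3.58.1, R 4.3.3) by the quasi-likelihood test over all 24 libraries with 1 coefficient per group. TMM factors and library sizes came from genes, also for repeats, and p-values were adjusted by Benjamini-Hochberg over all features. Class totals were compared by a two-sided exact permutation test. Counting intervals are exact, at 95%, and the floor for groups without a read is 3 reads over 3 libraries; both cover counting error only. The fit was tested on simulated data. Figures and sums used matplotlib 3.10.9, numpy 2.4.6, pandas 2.3.3 and scipy 1.17.1. Alternatives were DESeq2 1.42.0, other size factors, filters and thresholds, the replicate block, and leaving out each replicate.

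The members and lists were chosen with earlier results of these data known. Genes named are the 6 targeted ones, the 12 largest rises and falls among called genes without overlap, with a mean of at least 200 normalized counts in the higher group and no predicted-gene name, up to 4 called members per list, and genes the study names. Repeats follow the same rule with 6 in each direction, plus fixed elements. Others were named after their values were seen and are said to be so. A few genes that the rule names are not reported here. The same-group libraries differed by more than sampling noise, with a chi-square per gene of 2.34 to 5.16 in *E1E2 G9Gl* and 3.99 to 11.5 in *E1 S1S2*. Same-numbered libraries of the 2 lines did not deviate together, with correlations of -0.038, -0.0072 and -0.031.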

Additional observations from a re-analysis of the deposited data

Results flagged for a closer look

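For 13 named genes the 2 lines were called in opposite directions against the same WT libraries, and the difference itself is the edgeR comparison of the lines in the report. The WT libraries are shared by both contrasts. In *E1E2 G9Gl* above WT and in *E1 S1S2* below it were *Vat1l* (log2 fold change between the lines 11.86, ratio 4542 (95% counting interval 1257 to 37513), means of 2598 in *E1E2 G9Gl*, 3.896 in WT and 0.5996 in *E1 S1S2*) and *Ly6f* (11.70, ratio 4768 (95% counting interval 855 to 188359), means of 1367, 5.28 and 0.2998). The same held for *Tbx4* (6.86, ratio 141 (95% counting interval 38.5 to 1172)), with means of 81.4 in *E1E2 G9Gl*, 15.4 in WT and 0.602 in *E1 S1S2*. It held as well for *Col3a1* (4.15), *Hoxa13* (4.00), *Bmp6* (3.12) and *Tlr4* (2.60). Their WT means were 18077, 10.02, 33.7 and 687.

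In the other direction, below WT in *E1E2 G9Gl* and above it in *E1 S1S2*, was *Tbc1d9* (-9.78, ratio 1167 (95% counting interval 209 to 46120) in favour of *E1 S1S2*, with means of 0.432, 104 and 454 in *E1E2 G9Gl*, WT and *E1 S1S2*). So were *Dclk1* (-6.59), *Eps8l2* (-6.16), *Kcnn4* (-5.78), *Pmaip1* (-5.23) and *Wnt11* (-4.42), with WT means of 107, 298, 89.97, 395 and 58.8. For *Pmaip1* the means were 20.9 in *E1E2 G9Gl* and 794 in *E1 S1S2*.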

How the results depend on the processing

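Of 1928 values of the named genes and elements under alternatives, 1911 kept their direction and side of the threshold. Scaling of repeats decides the most: with factors from repeats alone, which move the median of all elements from 0.59 to -0.037, 228 elements were higher and 75 lower (197 and 53 in the difference of steps), ERV1 was at 0.40, ERVK at 0.92, L1 at 0.58, MERVL-int at 0.43 and MMERVK10C-int at 0.72, all below the 2-fold limit, MuLV-int reversed to -0.13, and the class ratios were 1.39 for LTR, 1.48 for LINE, 0.628 for SINE, 0.733 for DNA and 0.537 for satellites. Without MMVL30-int, the element that was largest over all libraries and lower in *E1E2 G9Gl*, the LTR ratio was 2.83 and ERV1 was at 1.93. A setting without RLTR6-int, the element named above, was not run. ERV1 fell just under the limit with no filter (0.99), with factors from genes and repeats (0.98) and without *E1E2 G9Gl* replicate 1.

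Above a mean of 100 normalized counts 909 genes were higher and 478 lower, 914 and 694 in the difference of steps, and 256 and 5 repeats. With no fold change minimum the counts were 5006 and 4308 genes, 3703 and 3259 in the difference of steps, and 670 and 26 repeats. DESeq2 called 2621 and 1019 genes. Relative to the median of each chromosome, a setting chosen after seeing the data, 2584 and 1060 were called.

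Leaving out 1 library gave 2551 to 2579 higher and 1001 to 1074 lower genes (1787 to 1863 and 1180 to 1256 in the difference of steps), 375 to 398 and 10 to 13 repeats (312 to 373 and 10 to 15), and ranges of 0.996 to 1.04 for ERV1, 1.504 to 1.57 for ERVK, 0.63 to 0.69 for ERVL, 0.62 to 0.69 for ERVL-MaLR, 1.15 to 1.24 for L1, 2.12 to 2.16 for LTR, 2.22 to 2.37 for LINE, 0.946 to 1.00 for SINE, 1.09 to 1.17 for DNA and 0.80 to 0.86 for satellites. Calls were lost for *Irf9* (0.98 to 1.00 in 3 alternatives), *Pcdhb17* (-2.18 to -1.503 in 6), *Zfp936* (2.79 to 3.16 in 4) and *Vmn1r47* (6.64 with DESeq2); the cause was not tested. The replicate numbers do not pair the libraries. With the replicate block 2630 genes were higher and 1074 lower (1895 and 1232 in the difference of steps), and 395 and 12 repeats (354 and 13), and the block changed no call of a named gene or element. The *E1E2 G9Gl* libraries are the shallower ones, and genes with a few reads in both lines cannot be told apart at this depth.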

Other observations

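Groups of neighbouring genes, chosen after their values were seen, moved together. The prolactin family lies on chromosome 13 between positions 12790816 and 28023559 and makes hormones of placenta and pituitary. Of 13 members tested 12 were higher in *E1E2 G9Gl*, beside 14.2% of all genes, with a median log2 fold change of 7.53, or 7.39 with the members at 0 in *E1 S1S2* set to their bound. A member entered the test only where some group of libraries held enough reads. Among the groups used here that was *E1E2 G9Gl* alone for most members, so the share called was largely set by that filter. *Prl7c1* had 333, 291 and 290.1 normalized counts in *E1E2 G9Gl* and no read in *E1 S1S2*, at least 357-fold higher, and *Prl4a1* was at least 136-fold higher. *Prl7d1* had a ratio of 369.9 (95% counting interval 102 to 3062) and *Prl7a2* of 212 (95% counting interval 71.97 to 1030.0). *Prl*, the pituitary hormone itself, was at least 20.4-fold higher, and *Prl2c2* was not called (1.05). In the difference of steps 7 members were higher. Within the 250 bases before the start site, TATATA was present in 11 of the 12 members with a promoter in the table (91.7%).

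The opposite held for a cluster of zinc finger genes on chromosome 4, between positions 145510759 and 147848366, where 12 of 18 tested were lower in *E1E2 G9Gl*, beside 5.82% of all genes. The median was -3.27, or -2.87 with genes at 0 in *E1E2 G9Gl* set to their bound, while the median over all 366 tested genes named Zfp was 0.06. *Zfp980* and *Zfp978* are among them, and *Zfp982* was higher in *E1 S1S2* by a ratio of 40.4 (95% counting interval 6.95 to 1623). In the difference of steps 7 were lower. The same filter decided which genes of the cluster were tested. Genes of this cluster are similar to each other, so the division of reads among them is uncertain.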
